A study of Mus musculus with 15 samples.

Results

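Transcripts of the nuclear genes of mitochondrial respiratory complexes II, III, IV and V, and of cytochrome c, were measured by RNA sequencing in hematopoietic stem cells (HSC) of the mouse. The members were the genes of the count table whose symbol is Sdha, Sdhb, Sdhc, Sdhd, Cyc1 or Cycs, or begins with Uqcr, with Cox and a digit from 4 to 8, or with Atp5, after 4 pseudogenes were left out. That gave 46 of 16154 genes, of which 4 encode complex II, 9 complex III, 15 complex IV and 15 complex V. Cycs encodes cytochrome c, and 2 genes, Atp5s and Atp5sl, carry an Atp5 symbol without being subunits of the enzyme. These 2 are kept apart, so that 43 genes stand for complexes II to V. Cox7a2l is counted with complex IV by its symbol. The genes of complexes III, IV and V encoded in mitochondrial DNA were not analysed here.

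All HSC came from C57BL/6 mice labelled as female. The 5 young mice were 6 to 12 weeks old, and the 5 aged mice were 20 to 24 months old. Another 5 mice in the aged range, the NR-treated aged group, received nicotinamide riboside (NR), a vitamin B3 compound from which cells make NAD, at 3 mg/ml in the drinking water for 2 months. Each library is described as the HSC of 1 mouse, sorted as Lin- Sca-1+ cKit+ CD150+ CD48- cells. The design asked which members differed with age, which differed between aged HSC with and without NR, and which differed between NR-treated aged and young HSC.

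Complex II (succinate dehydrogenase) belongs to both the citric acid cycle and the respiratory chain and passes electrons from succinate to ubiquinone. Complex III (the cytochrome bc1 complex) passes them on to cytochrome c, and complex IV (cytochrome c oxidase) passes them to oxygen. Complexes III and IV pump protons across the inner membrane, and complex V (ATP synthase) uses the resulting gradient to make ATP. HSC at rest are known for a low reliance on this route and a marked use of glycolysis.

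Values are counts scaled to the library size (CPM), with effective sizes set by TMM (trimmed mean of M values), and log2 fold changes are given with their standard error (SE). The libraries count 3′ ends of transcripts, so CPM values are compared between libraries of the same gene and not between genes. Library totals ranged from 2122221 to 3631395 in young, from 764119 to 13318989 in aged and from 2486399 to 3595384 in NR-treated aged HSC. At these depths 42 of the 46 members had at least 10 counts in every library, and the exceptions were Cox6a2, Cox7a1, Cox4i2 and Atp5g2. The 8 HSC and progenitor markers checked (Kit, Slamf1 and Procr among them) were all measured, with a summed level of 1320 to 1682 CPM in young, 1505 to 1904 in aged and 1410 to 1851 CPM in NR-treated aged libraries. Of 35 markers of mature blood cells, 32 were measured and summed to 1063 to 11585 CPM in young (median 1777), 9323 to 12153 in aged and 838 to 1745 CPM in NR-treated aged libraries. Young 3 was the young library with the highest sum, of which 7960 CPM were neutrophil and monocyte markers. By class, erythroid markers summed to 141 to 2664 CPM in young, 3226 to 6503 in aged and 70.9 to 566 CPM in NR-treated aged libraries. B and plasma cell markers summed to 110 to 814, 623 to 4440 and 92.9 to 170 CPM in the same order, and neutrophil and monocyte markers to 584 to 7960, 2345 to 3690 and 556 to 955 CPM. T and NK cell markers were not higher in aged libraries, at 87.1 to 156, 77.5 to 101 and 40.8 to 150 CPM. Single markers could differ from their class, as Cd79b did at 54.4 to 84.0, 62.3 to 88.8 and 52.2 to 71.2 CPM. Cd79a, Cd3e and Ncr1 were not analysed here. The part of these transcripts in the differences below was not tested, and fewer cells of a type cannot be told apart from less RNA per cell in bulk samples. Y-linked transcripts reached 105 CPM in the young group, in young 1 and young 5, against at most 3.00 CPM in the aged groups, so results are also given without these 2 libraries. Xist, the other sex marker checked, was at 420 CPM in young 1 and 472 CPM in young 5, beside 293 to 429 CPM in aged libraries. Whether young 1 and young 5 each hold the cells of 1 mouse was not tested.

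With age, most members were somewhat higher and few passed the test. Of the 43 genes of complexes II to V, 37 had a positive log2 fold change in aged against young HSC, with a median of 0.23, while 47.2% of all genes were positive with a median of -0.03. The test called 8 of the 46 members (17.4%) at an adjusted p under 0.05 (edgeR's quasi-likelihood test, Benjamini-Hochberg over all genes), of which 7 were higher and 1 was lower. Among all genes 19.3% were called, 9.68% as higher and 9.63% as lower, so with TMM the share of members called was close to that of all genes. The members called were Sdha of complex II, Uqcr11 of complex III, Cox4i1, Cox7a1, Cox7a2l and Cox6b2 of complex IV, and Atp5f1 and Atp5j of complex V. Levels of aged and young libraries did not overlap for 6 of the 43 genes, against 12.4% of all genes, with 5 of them higher (6.86% of all genes) and 1 lower (5.53%) in aged HSC.

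With NR, the signs were mostly negative. Of the 43 genes, 37 had a negative log2 fold change in NR-treated aged against aged HSC, with a median of -0.23 beside 0.02 over all genes. Cox7a2l, Atp5f1 and Cox6a2 were called as lower, 3 of the 46 members (6.52%), against 8.07% of all genes (4.18% as lower). Levels did not overlap for Cox7a2l, Atp5f1 and Atp5j, again 3 of 43 and all lower, beside 4.95% of all genes. Between NR-treated aged and young HSC, 24 of the 43 genes were positive and 19 negative with a median of 0.02, and only Cox6a2 was called, as lower, 1 of the 46 members (2.17%) against 4.47% of all genes (1.91% as lower). The comparisons with age and with NR share the 5 aged libraries, so their opposite signs are not independent of each other.

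**Figure D1:**
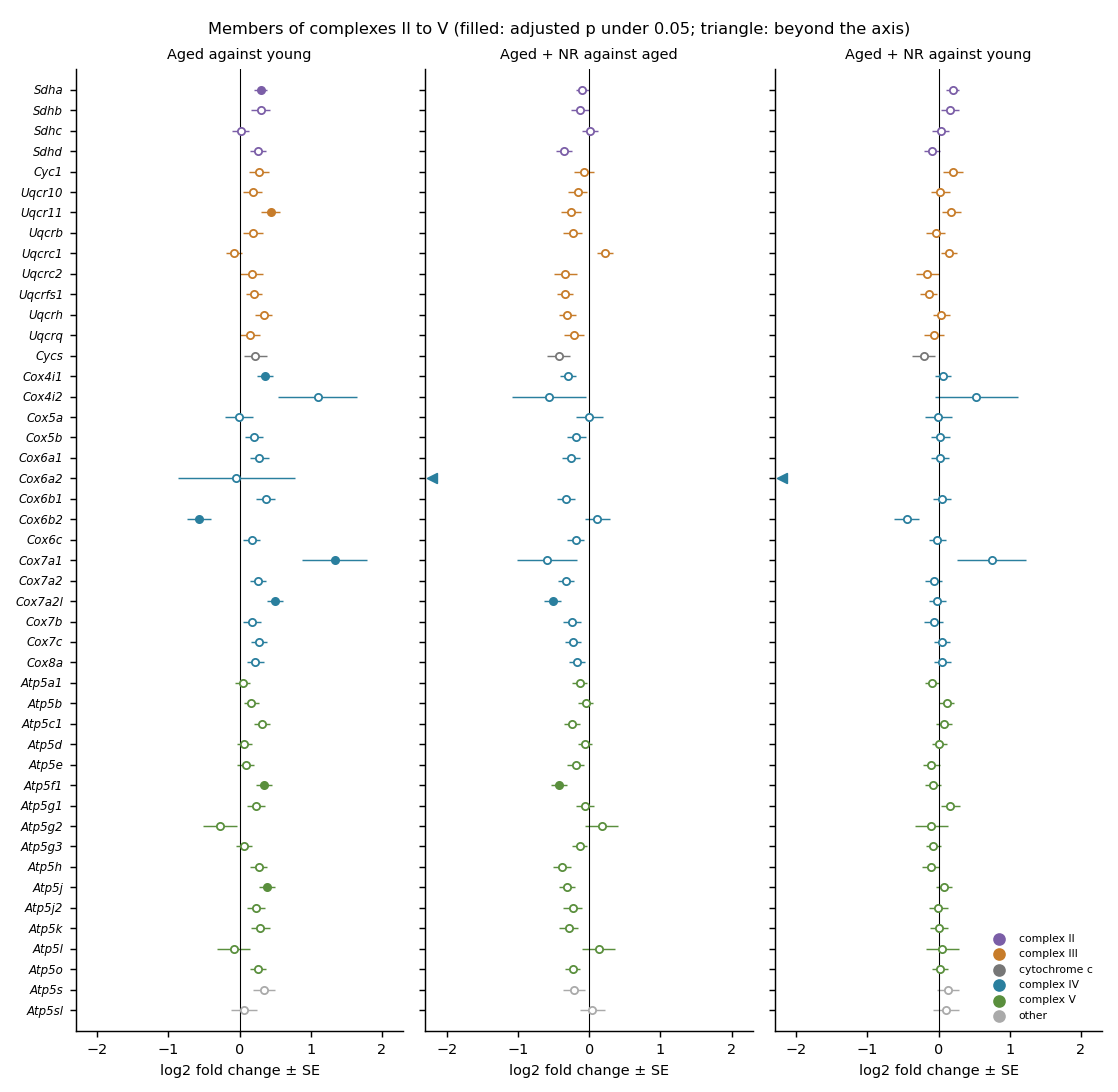
Log2 fold change ± SE of each member in the 3 comparisons, with the genes ordered and coloured by complex and filled symbols for adjusted p under 0.05. Most points lie right of 0 in aged against young HSC (37 of 43) and left of 0 in NR-treated aged against aged HSC (37 of 43), and the triangle marks Cox6a2 beyond the axis.

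These calls depended on single libraries and on scaling. In aged against young HSC the count of 8 became 4 without young 1 or aged 5, 2 without young 4 or aged 3, 3 without young 5, 5 without aged 4 and 12 without young 2. It was 6 without young 3, 3 without young 1 and 5 together and 1, Cox7a2l, without aged 2 and 3, the libraries of the smallest and largest total. In each of those fits between 36 and 39 of the 43 genes were positive. The calls over all genes moved as well. From 3120 they became 2123 without young 4, 1953 without aged 3, 2236 without aged 5 and 3533 without young 2. Scaling by library totals in place of TMM lowered the median of all genes to -0.16 and that of the 43 genes to 0.10, with 32 positive and 2 members called, Cox7a2l and Cox6b2. That was 4.35% of the members beside 21.7% of all genes (1020 higher and 2485 lower), so with this scaling the shares were not close. The same scaling moved the medians for NR-treated aged against aged HSC to 0.16 over all genes and -0.09 over the 43 genes, of which 29 were then negative. It called 3 of the 46 members with NR (6.52%, beside 9.84% of all genes). Atp5f1 was no longer among them, and Uqcrc1 was called as higher.

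Complex II had 1 call with age among its 4 genes, Sdha, the catalytic flavoprotein that binds and oxidises succinate. Its level was 199, 217, 232, 193 and 223 CPM in young libraries 1 to 5, 259, 256, 283, 275 and 229 CPM in aged libraries and 251, 250, 216, 257 and 246 CPM in NR-treated aged libraries. Of the aged libraries 4 lay above every young one, and aged 5 lay below young 3. Sdha rose with age by a log2 fold change of 0.29 ± 0.09 (SE; n = 5 against 5; adjusted p = 0.0337, edgeR's quasi-likelihood test). The call was lost without young 1, 4 or 5 or aged 1, 3 or 4. After NR the log2 fold change against aged HSC was -0.09 ± 0.09, and NR-treated aged HSC lay 0.20 ± 0.09 above young HSC, neither of which passed.

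The iron-sulfur subunit Sdhb and the membrane anchors Sdhc and Sdhd did not pass in any comparison. Sdhb had a log2 fold change of 0.29 ± 0.13 with age and of -0.13 ± 0.13 with NR. Sdhd had 0.25 ± 0.11 with age and -0.35 ± 0.11 with NR (adjusted p = 0.0593, edgeR's quasi-likelihood test). Sdhc was level throughout, at 84.4 ± 10.1 CPM (SD, n = 5) in young, 85.4 ± 6.98 in aged and 86.0 ± 12.8 CPM in NR-treated aged HSC. Summed over its 4 genes, complex II stood at 618 ± 51.1 CPM in young, 733 ± 44.6 in aged and 660 ± 67.8 CPM in NR-treated aged HSC. The median log2 fold change with NR was -0.11 with TMM and 0.02 with library totals, so the sign of that median followed the scaling, while the log2 ratio of the sums was -0.15 with TMM and -0.02 with library totals.

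Complex III had 1 call among its 9 genes. Uqcr11, a small accessory subunit, was measured at 371, 394, 295, 305 and 284 CPM in young libraries 1 to 5 and at 405, 544, 486, 403 and 399 CPM in aged libraries. Its level in NR-treated aged libraries was 448, 280, 327, 377 and 435 CPM. All aged libraries lay above all young ones, and the NR-treated aged libraries spanned both. Uqcr11 rose with age by 0.43 ± 0.14 on the log2 scale (adjusted p = 0.0334, edgeR's quasi-likelihood test), and its log2 fold change with NR was -0.25 ± 0.14. The call was lost without young 3, 4 or 5 or aged 2 or 3. Its 3′ end matches 1 other annotated gene, Gm16418, which was itself counted, so its reads may have been split between the genes. Gm16418 was at 2.54 to 8.44 CPM in young and at 4.82 to 25.9 CPM in aged libraries.

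The catalytic members of complex III did not pass. Cytochrome c1 (Cyc1) had a log2 fold change of 0.28 ± 0.14 with age and of -0.08 ± 0.14 with NR. The Rieske iron-sulfur protein Uqcrfs1 had 0.20 ± 0.12 with age and -0.34 ± 0.12 with NR (adjusted p = 0.0727, edgeR's quasi-likelihood test). The core proteins differed from each other in sign, with 0.17 ± 0.16 for Uqcrc2 and -0.08 ± 0.11 for Uqcrc1 with age. Uqcrc1 was the 1 gene of the complex with a positive log2 fold change after NR, 0.22 ± 0.11, and with library totals this passed at 0.35 (adjusted p = 0.0455, edgeR's quasi-likelihood test). The other small subunits Uqcr10, Uqcrb, Uqcrh and Uqcrq had values from 0.15 to 0.34 with age and from -0.31 to -0.16 with NR, and none passed. The summed level of complex III was 2369 ± 273 CPM in young, 2806 ± 251 in aged and 2432 ± 368 CPM in NR-treated aged HSC.

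Cycs, which encodes the mobile carrier between complexes III and IV, was not called. It was at 53.6 ± 6.18 CPM in young, 63.4 ± 9.15 in aged and 46.3 ± 12.9 CPM in NR-treated aged HSC, with log2 fold changes of 0.22 ± 0.16 with age and -0.43 ± 0.16 with NR.

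Complex IV held 4 of the 8 calls with age, and its genes with a known tissue pattern did not move together. Cox7a2l, also known as a supercomplex assembly factor that joins complexes III and IV, was called in both comparisons with aged HSC. C57BL/6 mice are known to carry a shortened Cox7a2l allele, and gene counts do not show which form was made. Its level was 381, 404, 291, 377 and 423 CPM in young libraries 1 to 5 and 460, 453, 523, 563 and 646 CPM in aged libraries. In NR-treated aged libraries it was 373, 395, 342, 349 and 396 CPM. All 5 aged libraries lay above all libraries of both other groups, while young and NR-treated aged libraries overlapped. Cox7a2l rose with age by 0.50 ± 0.12 on the log2 scale (adjusted p = 0.00589, edgeR's quasi-likelihood test). In NR-treated aged HSC it fell by 0.51 ± 0.12 on that scale against aged HSC (adjusted p = 0.0133, same test), and its log2 fold change against young HSC was -0.02 ± 0.12. Both calls held in all 11 other settings and in all 15 fits without 1 library, with adjusted p from 0.000348 to 0.0495 for age and from 0.000569 to 0.0433 for NR by the tool of each fit. The summed mature blood cell markers were also high in every aged library and low in every NR-treated aged one. Young 3 had 11585 CPM of these markers, within the aged range of 9323 to 12153 CPM, and the lowest Cox7a2l level of all libraries. Its mix differed from that of the aged libraries. Its erythroid markers (2655 CPM) lay below every aged library and its neutrophil and monocyte markers (7960 CPM) above every aged library. The part of the markers in the Cox7a2l result was not tested. The gene lies at chr17:83501918-83517330 on the minus strand (GRCm38, GENCODE M21), shares no exon bases with another gene, and its 3′ end matched no other annotated transcript.

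The main isoform of subunit 4, Cox4i1, rose with age by 0.36 ± 0.11 on the log2 scale (adjusted p = 0.0309, edgeR's quasi-likelihood test). Its level was 992, 1206, 886, 987 and 909 CPM in young libraries, 1155, 1175, 1521, 1200 and 1325 CPM in aged libraries and 1136, 915, 940, 1031 and 1159 CPM in NR-treated aged libraries. Young 2 stood among the aged values, and the other young libraries lay below all of them. The call was lost without young 1, 3, 4 or 5 or aged 3 or 5. With NR the log2 fold change was -0.30 ± 0.11 and did not pass (adjusted p = 0.1, same test). Cox4i1 shares 154 exon bases with Emc8 on the opposite strand, which was at 52.9 ± 5.40 CPM in young HSC against 54.6 ± 8.19 CPM in aged HSC.

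Cox6b2, known as the testis isoform of subunit 6b, was the 1 member that fell with age. It stood at 83.9, 118, 81.3, 67.8 and 64.5 CPM in young libraries 1 to 5 and at 48.7, 55.8, 58.3, 64.0 and 52.8 CPM in aged libraries. Every aged library lay below every young one, by a narrow margin between aged 4 and young 5. Cox6b2 fell by 0.57 ± 0.17 on the log2 scale (adjusted p = 0.0255, edgeR's quasi-likelihood test), and the call was lost without young 2, aged 1 or aged 5. NR-treated aged libraries were at 77.1, 52.2, 44.7, 53.0 and 75.2 CPM, a log2 fold change of 0.12 ± 0.17 against aged HSC. The widely expressed isoform Cox6b1 went the other way without passing, with 0.36 ± 0.13 with age (adjusted p = 0.0524, same test) and -0.32 ± 0.13 with NR.

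The remaining tissue isoforms were near the limit of detection. Cox7a1, the heart and muscle isoform of subunit 7a, had 4, 4, 2, 2 and 3 counts in young libraries, 16, 1, 28, 13 and 24 in aged libraries and 7, 3, 3, 8 and 8 counts in NR-treated aged libraries. The aged counts come from libraries of unequal total, and at equal scale they were 2.31, 1.30, 2.37, 2.31 and 4.82 CPM against 1.40, 1.61, 0.898, 0.726 and 0.809 CPM in young HSC. The ranges overlapped through aged 2. Cox7a1 rose with age by 1.34 ± 0.46 on the log2 scale (adjusted p = 0.0459, edgeR's quasi-likelihood test). This call was kept in 2 of 10 other settings and lost in 10 of the 15 fits without 1 library, those without young 1, 3, 4 or 5, aged 1, 3, 4 or 5 or NR-treated aged 1 or 5. The lung isoform Cox4i2 had 0 to 6 counts in young and 3 to 15 counts in aged libraries, with a log2 fold change of 1.10 ± 0.55 that did not pass.

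Cox6a2, the heart and muscle isoform of subunit 6a, was at or near 0 counts in every NR-treated aged library. It had 2, 2, 39, 5 and 0 counts in young libraries 1 to 5, 10, 0, 74, 29 and 18 counts in aged libraries and 0, 0, 0, 0 and 1 count in NR-treated aged libraries. Young 3, with 17.5 CPM, exceeded all other libraries, and 2 of the untreated libraries (young 5 and aged 2) had 0 counts like most of the NR-treated ones. Cox6a2 was called as lower with NR, with a log2 fold change of -5.34 (adjusted p = 0.0252, edgeR's quasi-likelihood test). Counts were also pooled over each group, where libraries of larger total weigh more, and aged 3 held 74 of the 131 aged counts. Pooled in this way, aged HSC stood at 69.0 times the level of NR-treated aged HSC (131 counts against 1). The 95% exact interval of 12.2 to 2747 covers counting error only and not differences between mice. The call with NR was lost without aged 3 or NR-treated aged 2, 3 or 4. Pooled likewise, young HSC stood at 54.3 times the level of NR-treated aged HSC (48 counts against 1, interval 9.29 to 2190). Cox6a2 was called as lower in NR-treated aged than in young HSC, with a log2 fold change of -5.39 (adjusted p = 0.0345, edgeR's quasi-likelihood test). Without young 3, which held 39 of those 48 counts, that call was lost (adjusted p = 0.202, same test), as it was without any 1 of the NR-treated aged libraries. Without young 3 Cox6a2 was instead called as higher in aged than in young HSC, by 2.22 on the log2 scale (adjusted p = 0.0379, same test). Siglech, a marker of plasmacytoid dendritic cells chosen after its values were seen, was at 22.5 CPM in young 3, at 0.351, 0.804, 7.26 and 0.270 CPM in the other young libraries, at 0.867 to 8.53 CPM in aged libraries and at 0, 0, 0, 0 and 2.18 CPM in NR-treated aged libraries. A gene chosen in this way cannot test where the Cox6a2 counts came from, and any link between these genes was not tested.

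The widely expressed partner Cox6a1 had log2 fold changes of 0.28 ± 0.13 with age and -0.26 ± 0.13 with NR, without passing. The core structural subunits Cox5a and Cox5b did not pass either, with -0.01 ± 0.19 and 0.21 ± 0.13 with age and 0.00 ± 0.19 and -0.18 ± 0.13 with NR. Cox6c, Cox7a2, Cox7b, Cox7c and Cox8a ranged from 0.17 to 0.28 with age and from -0.32 to -0.17 with NR. Cox5a shares 269 exon bases with Gm26631 on the opposite strand, and Cox6c shares 250 bases with Vps13b. The summed level of complex IV was 4717 ± 463 CPM in young, 5711 ± 629 in aged and 4736 ± 632 CPM in NR-treated aged HSC.

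**Figure D2:**
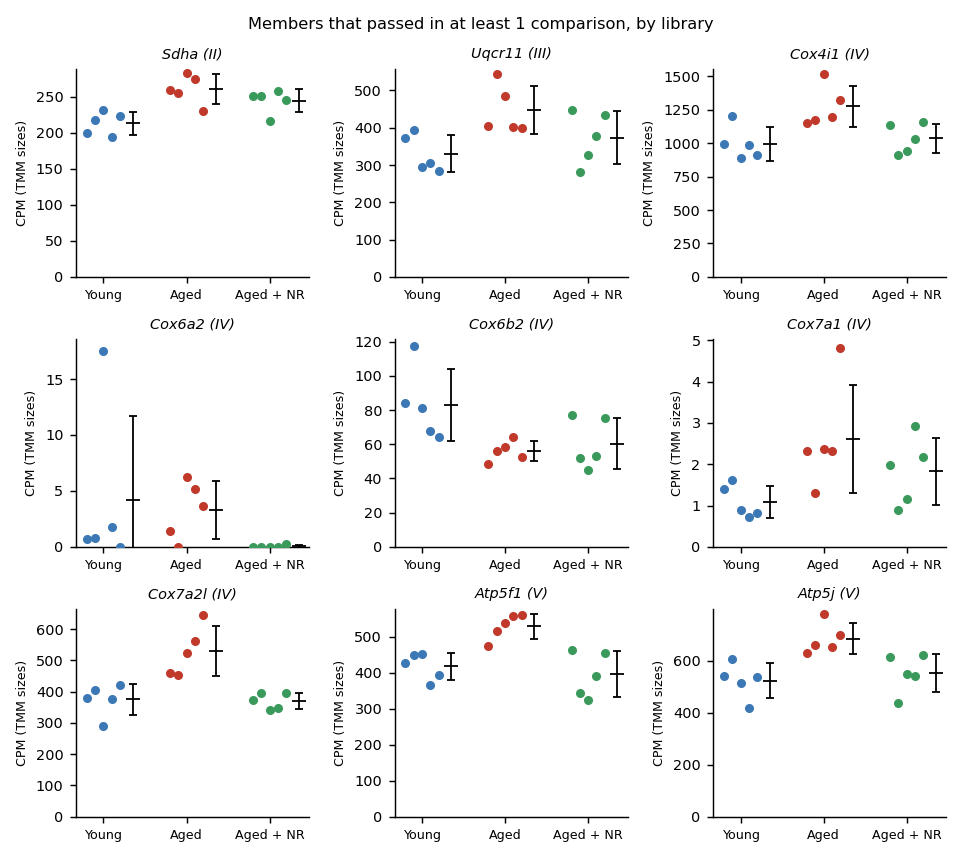
CPM of the 9 members called in at least 1 comparison, 1 point per library in the order of the replicate numbers, with the mean ± SD (n = 5) beside each group and each axis starting at 0, where the lower error bars of Cox6a2 are cut. The aged points of Cox7a2l lie above all others, while Cox6a2 is at 0 CPM in 4 of the 5 NR-treated aged libraries and peaks at 17.5 CPM in young 3.

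Complex V had 2 calls with age and 1 with NR, all in its peripheral stalk, which holds the catalytic head still against the rotor. Atp5f1, the b subunit of the stalk, was at 428, 451, 451, 365 and 394 CPM in young libraries 1 to 5 and at 475, 516, 539, 558 and 560 CPM in aged libraries. In NR-treated aged libraries it was at 465, 344, 324, 393 and 455 CPM. All aged libraries lay above all young and all NR-treated aged ones, the nearest being aged 1 and NR-treated aged 1. Atp5f1 rose with age by 0.34 ± 0.11 on the log2 scale (adjusted p = 0.0361, edgeR's quasi-likelihood test) and fell by 0.42 ± 0.11 with NR (adjusted p = 0.0272, same test). The age call was lost without young 1, 4 or 5 or aged 3, 4 or 5, and the NR call without aged 3, 4 or 5 or NR-treated aged 2, 3 or 4. Both calls were also lost with library totals, with counts thinned to the smallest total and without aged 2 and 3 together. The age call was further lost with the replicate block and without young 1 and 5 together. The gene lies at chr3:105942698-105960099 on the minus strand (GRCm38) and shares 337 exon bases with Wdr77 and 203 with Gm42890, both on the opposite strand. Wdr77 was at 88.5 ± 4.43 CPM in young, 96.5 ± 3.10 in aged and 98.9 ± 13.0 CPM in NR-treated aged HSC, and the strand setting of the counting is not given in the sources used here. Its 3′ end also matched the counted gene Gm12231, at 2.56 ± 2.24 CPM in young HSC against 3.68 ± 2.36 CPM in aged HSC.

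Atp5j, coupling factor 6 of the same stalk, was at 542, 607, 516, 419 and 536 CPM in young and 629, 659, 780, 654 and 700 CPM in aged libraries. NR-treated aged libraries were at 614, 439, 550, 540 and 622 CPM, below every aged library. Atp5j rose with age by 0.39 ± 0.11 on the log2 scale (adjusted p = 0.0238, edgeR's quasi-likelihood test), a call lost without young 4 or aged 3. With NR its log2 fold change of -0.31 ± 0.11 did not pass (adjusted p = 0.0987, same test), although the libraries did not overlap. Atp5j shares 397 exon bases with Gabpa, which encodes a subunit of an ETS-family activator and was at 35.9 ± 2.78 CPM in young HSC against 38.5 ± 5.69 CPM in aged HSC. Its 3′ end also matched the counted gene Gm11966, at 3.63 to 13.3 CPM in young and 7.43 to 16.9 CPM in aged libraries.

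The rest of the stalk did not pass. Atp5h, its d subunit, had log2 fold changes of 0.27 ± 0.12 with age and -0.38 ± 0.12 with NR (adjusted p = 0.0594, edgeR's quasi-likelihood test). Atp5o, which links stalk and head, was higher in every aged than in every young library, at 447 ± 26.0 against 375 ± 35.4 CPM (SD, n = 5), with a log2 fold change of 0.26 ± 0.11 that did not pass (adjusted p = 0.11, same test).

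The genes of the catalytic head and central stalk were not called with age. Atp5a1 (alpha) had a log2 fold change of 0.04 ± 0.10 and Atp5b (beta) of 0.16 ± 0.11, while Atp5c1, the gamma subunit of the central stalk, had 0.31 ± 0.11 (adjusted p = 0.0526, edgeR's quasi-likelihood test). With NR they had -0.13 ± 0.10, -0.05 ± 0.11 and -0.24 ± 0.11. None of these passed the adjusted threshold. The delta and epsilon subunits Atp5d and Atp5e were at 0.07 ± 0.10 and 0.08 ± 0.12 with age. Atp5g1, Atp5g2 and Atp5g3, which encode the identical mature c subunit of the rotor ring, did not pass. Atp5g1 had 0.23 ± 0.13, Atp5g2 -0.27 ± 0.24 and Atp5g3 0.06 ± 0.11 with age, and their values with NR were -0.06 ± 0.13, 0.17 ± 0.23 and -0.13 ± 0.11. The c subunit genes thus differed in sign in both comparisons. The membrane subunits Atp5j2 and Atp5k had 0.23 ± 0.13 and 0.29 ± 0.13 with age, and Atp5l had -0.08 ± 0.23. Summed over its 15 genes, complex V was at 5080 ± 366 CPM in young, 5888 ± 446 in aged and 5096 ± 730 CPM in NR-treated aged HSC. Atp5s and Atp5sl, which are not subunits, were not called, with 0.34 ± 0.15 and 0.06 ± 0.18 with age.

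**Figure D3:**
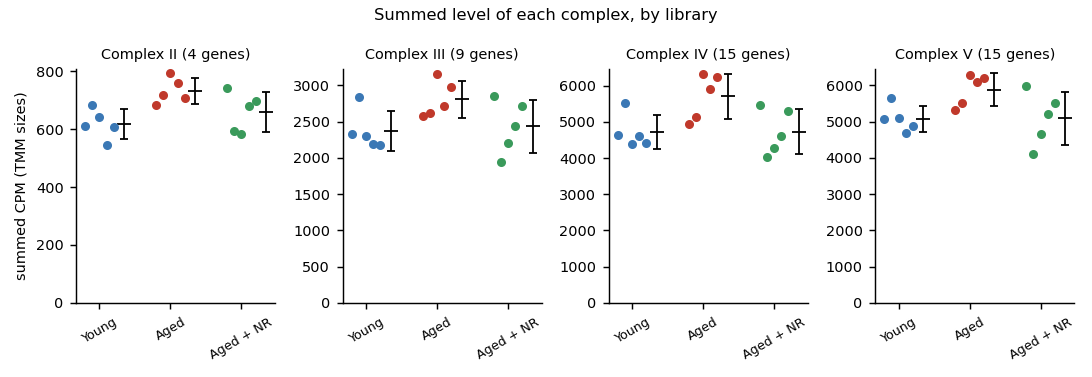
Summed CPM of the genes of each complex in each library, with the mean ± SD (n = 5) beside each group and axes starting at 0. In every panel the aged mean lies above the means of the young and NR-treated aged groups and the libraries of the groups overlap, as for complex II with 682 to 795 CPM in aged and 544 to 683 CPM in young HSC.

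The median log2 fold changes with age lay close together between complexes. They were 0.27 for complex II, 0.19 for complex III, 0.26 for complex IV and 0.23 for complex V, with 4 of 4, 8 of 9, 12 of 15 and 13 of 15 genes positive. With NR the medians were -0.11, -0.23, -0.26 and -0.19. As log2 ratios of summed levels, aged against young HSC gave 0.25, 0.24, 0.28 and 0.21 for complexes II to V, and NR-treated aged against aged HSC gave -0.15, -0.21, -0.27 and -0.21. With library totals these became 0.12, 0.12, 0.15 and 0.09 with age and -0.02, -0.07, -0.13 and -0.08 with NR. The same scaling left 8 of the 15 complex V genes negative with NR, in place of 13. No difference between the complexes was tested.

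Within a group the members tended to share the library in which they were high or low. Young 2 held the highest young value for 31 of the 43 genes. Aged 1 held the lowest aged value for 22 genes, and aged 3 the highest for 18. NR-treated aged 1 held the highest value of its group for 29 genes and NR-treated aged 2 the lowest for 32. The members are therefore not independent readings of a group, and the number with one sign is no measure of certainty. The median coefficient of variation over the 43 genes was 13.2% in young, 11.4% in aged and 16.6% in NR-treated aged HSC.

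**Figure D4:**
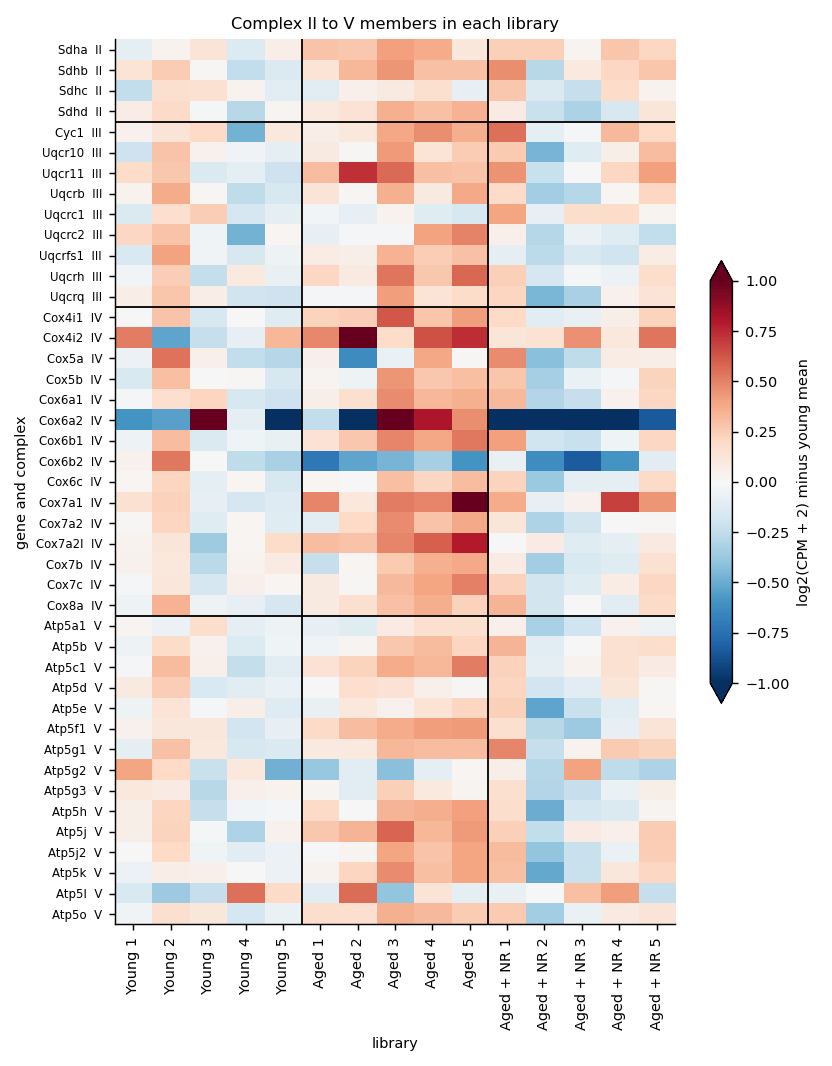
Log2(CPM + 2) of the 43 genes in each library minus the mean of the young libraries, with genes grouped by complex and colours limited to 1 unit either way. Aged libraries are mostly red, NR-treated aged 2 is the bluest library with the lowest value of its group in 32 genes, and Cox6b2 and Cox6a2 stand out from the rows around them.

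Levels of the members were also set beside the mature blood cell markers by library. The mean log2 CPM over the 43 genes ranged from 7.29 to 7.56 in young, from 7.48 to 7.75 in aged and from 7.12 to 7.60 in NR-treated aged libraries. Young 3 had 2655 CPM of erythroid markers, below every aged library, and 7960 CPM of neutrophil and monocyte markers, above every aged library. Its 814 CPM of B and plasma cell markers lay within the aged range of 623 to 4440 CPM. Without young 3, 39 of the 43 genes were positive in aged against young HSC, with a median of 0.22. The part of the markers in the members' levels was not tested.

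**Figure D5:**
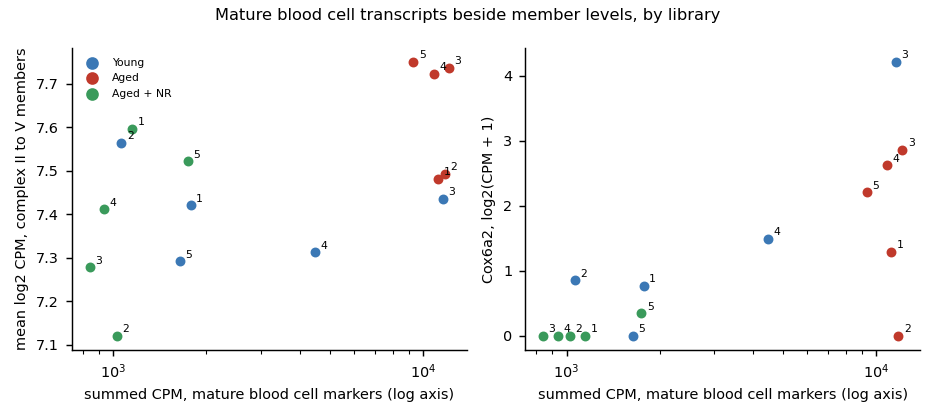
Summed CPM of 32 mature blood cell markers (log axis) against the mean log2 CPM of the 43 genes (left) and against log2(CPM + 1) of Cox6a2 (right), 1 numbered point per library coloured by group. The aged libraries lie at 9323 to 12153 CPM on the marker axis with young 3 at 11585 CPM, mostly from neutrophil and monocyte markers, and young 3 is the highest point on the right.

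Factors that build these complexes were examined as a list beside their subunits. Of 37 assembly factors, 33 were measured here, and 9 passed with age (27.3%, beside 19.3% of all genes), 8 as higher and 1 as lower. With library totals 2 passed (6.06%, beside 21.7% of all genes), 1 in each direction. Sdhaf1, for complex II, rose by 0.73 ± 0.22 on the log2 scale (adjusted p = 0.0233, edgeR's quasi-likelihood test), a call lost without young 4, aged 3 or aged 5 and with library totals. Coa4 and Coa7, assembly factors of complex IV, rose by 0.63 ± 0.20 and 0.52 ± 0.14 (adjusted p = 0.0295 and 0.0133, same test). Coa4 lost its call without young 3, aged 1, aged 3 or aged 5, Coa7 without young 1 and 5 together, and both with library totals. Sdhaf4, Uqcc3, Coa3, Smim20 and Tmem70 rose by 0.33 to 0.47. Coa7 ranged from 22.5 to 28.7 CPM in young libraries and from 34.5 to 37.9 CPM in aged libraries, with no overlap. Ttc19, which removes fragments of the Rieske protein from complex III, fell by 0.59 ± 0.19 with age (adjusted p = 0.0322, same test) and rose by 0.82 ± 0.19 with NR (adjusted p = 0.0129, same test). Its levels were 23.9, 27.3, 20.2, 30.1 and 28.6 CPM in young, 17.8, 7.78, 16.3, 17.6 and 22.3 CPM in aged and 23.2, 27.4, 34.6, 35.4 and 32.9 CPM in NR-treated aged libraries. Aged 5 overlapped with young 3, and every NR-treated aged library lay above every aged one. The age call of Ttc19 was lost without young 4, young 5, aged 3 or aged 4 and without young 1 and 5 together. Its NR call held in every fit without 1 library and was lost with thinned counts and without aged 2 and 3 together. With NR, Smim20 also passed and fell by 0.39 ± 0.11 (adjusted p = 0.0315, edgeR's quasi-likelihood test), which made 2 of the 33 factors (6.06%, beside 8.07% of all genes). The Smim20 call was lost with library totals, under which 1 factor passed, as higher (3.03%, beside 9.84% of all genes).

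Of 12 transcriptional regulators of respiratory genes, 1 passed with age (8.33%, beside 19.3% of all genes). Yy1, a zinc finger factor, was at 97.2, 80.0, 106, 119 and 143 CPM in young and 81.5, 63.6, 73.0, 92.1 and 70.7 CPM in aged libraries, which overlapped. It fell by 0.51 ± 0.15 on the log2 scale (adjusted p = 0.0239, edgeR's quasi-likelihood test), a call lost without young 4, young 5, aged 3 or aged 5, without young 1 and 5 together and with thinned counts. Nrf1 had -0.31 ± 0.17 with age and 0.49 ± 0.17 with NR, Gabpa 0.12 ± 0.13 and -0.31 ± 0.13, and Tfam -0.11 ± 0.12 and -0.01 ± 0.12, and none of these passed. Of 6 subunits and partners outside the symbol rule, 1 passed with age (16.7%, beside 19.3% of all genes), while Ndufa4, Usmg5, Atpif1, Higd1a and Higd2a did not pass. 2010107E04Rik, a small protein of complex V, rose with age by 0.43 ± 0.14 (adjusted p = 0.0313, same test). That call was lost without young 1, 4 or 5 or aged 3, 4 or 5, without young 1 and 5 together, and with library totals, the replicate block or thinned counts. For comparison, 9 of 36 complex I genes (25%) passed with age, all higher, with a median of 0.29, and 13 of 76 mitochondrial ribosomal protein genes (17.1%) passed, all higher, with a median of 0.22, beside 9.68% of all genes called as higher. With library totals 3 of each passed (8.33% and 3.95%, beside 21.7% of all genes), with medians of 0.16 and 0.09. With NR, 2 complex I genes and 1 mitochondrial ribosomal protein gene passed (5.56% and 1.32%, beside 8.07% of all genes), all lower, with medians of -0.22 and -0.18. With library totals those medians were -0.08 and -0.04 and these calls were lost.

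Promoters were read for the members as 250 bases before to 50 after the start in RefSeq (GRCm38.p6), which held an entry for 36 of the 46 members and 33 of the 43 genes. They were searched on both strands for the NRF1 string (GCGC, then A, then any base, then GCGC), the ETS string CCGGAAG (for factors such as GABPA) and the YY1 string AAGATGGC, where the ETS and YY1 strings can overlap by 3 letters. The NRF1 string was in 10 of the 33 promoters (30.3%), beside 11.2% of the counted genes with an entry and 5.19% of all genes in RefSeq. The ETS string was in 12 (36.4%), beside 19.5% and 9.93%, and the YY1 string in 3 (9.09%), beside 5.16% and 3.19%. At least 1 of the 3 strings was in 60.6% of the members' promoters and in 31.5% of those of the counted genes.

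The promoters of Cox7a2l and Atp5f1 are shown because these genes were called in both comparisons with aged HSC in the main fit. Capitals mark a match to a searched string. Cox7a2l (chr17:83514284-83514583, minus strand) held none, and Atp5f1 (chr3:105959214-105959513, minus strand, listed as Atp5pb) held the YY1 string on the opposite strand, beginning 3 bases before the start. Both RefSeq starts lie within the GENCODE M21 span of the gene.
Cox7a2l: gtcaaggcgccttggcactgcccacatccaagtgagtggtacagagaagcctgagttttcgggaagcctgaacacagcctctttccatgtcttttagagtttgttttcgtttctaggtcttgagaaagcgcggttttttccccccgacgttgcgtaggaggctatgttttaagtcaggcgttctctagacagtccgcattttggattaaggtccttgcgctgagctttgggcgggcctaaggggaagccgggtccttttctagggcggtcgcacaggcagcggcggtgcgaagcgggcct
Atp5f1: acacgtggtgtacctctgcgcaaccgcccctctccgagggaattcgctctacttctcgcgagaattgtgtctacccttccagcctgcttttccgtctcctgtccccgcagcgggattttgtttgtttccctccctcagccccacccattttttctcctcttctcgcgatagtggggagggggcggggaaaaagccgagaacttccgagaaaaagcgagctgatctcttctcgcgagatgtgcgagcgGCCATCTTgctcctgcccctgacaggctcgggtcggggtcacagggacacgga
Of the other members called with age, Uqcr11 and Atp5j held the ETS string, Atp5j also the YY1 string, Sdha the NRF1 string, and Cox6b2 and Cox7a1 none. A match is a description of letters in this window and does not show binding.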

How the data were processed

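HSC libraries of 5 young, 5 aged and 5 NR-treated aged mice (described as 1 per mouse) carried a unique molecular identifier. The deposited values are raw read counts per gene, for which the authors aligned reads to GRCm38 with STAR (version 2.4.2a per the labels), removed duplicates by identifier and counted exons of GENCODE genes with featureCounts, keeping genes above minimum counts. They were used without a further filter.

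edgeR 4.0.16 (R 4.3.3) fitted the 15 libraries together with TMM sizes and a term for the group. Its quasi-likelihood test was called at 0.05 after adjusting p-values over 16154 genes by Benjamini and Hochberg. SE is the log2 fold change divided by the square root of F. Alternatives were the likelihood ratio test, DESeq2 1.42.0, limma 3.58.1 (voom), other scalings, a filter of 10 counts in every library, thinned counts, a replicate block, 2-group fits and left-out libraries. In simulated aged against young data with 16154 genes and 200 changed 2-fold, the main test recovered 62% with 4.62% false calls. Most members called differed by less than 2-fold, and the simulation held no library shifts shared between genes. Its rates therefore do not carry over to the members. Positions came from GENCODE M21. Copies were matches of at least 72 bases at 97% identity within the last 500 bases (BLAST). Libraries of a group differed beyond sampling noise (chi-square per degree of freedom from 3.21).

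The members and lists were chosen with earlier results of these data known. The genes named are all members called in a comparison, the core and catalytic members, the tissue isoforms and at most 4 called genes of each pathway list by size, and other genes given with values were chosen after their values were seen. No protein sequences were used here.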

Additional observations from a re-analysis of the deposited data

Results flagged for a closer look

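Of 81 groups of 5 libraries tested over the named members, 7 held a library far from the other 4 by Dixon's criterion, and over all members 10 of 138 did, where chance alone gives about 1 in 20 groups. Young 3 held 2 of them, with Cox6a2 at 17.5 CPM against at most 1.81 CPM in the other young libraries and Atp5g3 at 223 CPM against at least 278 CPM. Cyc1 was at 105 CPM in young 4, below 152 CPM in the next library, and Uqcrfs1 was at 230 CPM in young 2, above 169 CPM in the next. Cycs was at 79.1 CPM in aged 2, the library with the smallest total, above 61.9 CPM in the next. Sdha was at 216 CPM in NR-treated aged 3, below 246 CPM in the next, and Cox6a2 was at 0.272 CPM, a single count, in NR-treated aged 5 with 0 in the rest of its group.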

How the results depend on the processing

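In aged against young HSC the 8 members called became 2 with library totals, 2 with thinned counts, 3 without young 1 and 5 and 1 without aged 2 and 3 (chosen after seeing the data). Fits without 1 library gave 2 to 12. At an adjusted p under 0.01 it was 1 of the 46 members beside 1317 of 16154 genes. In NR-treated aged against aged HSC the 3 became 7 with DESeq2, 6 with limma-voom, 1 with thinned counts and 1 without aged 2 and 3, and fits without 1 library gave 1 to 6. At an adjusted p under 0.01 it was 0 members beside 208 of 16154 genes, and at 0.10 it was 8 beside 2320 genes. At an unadjusted p under 0.05 it was 15 of the 46 members beside 4048 of 16154 genes. In NR-treated aged against young HSC the 1 became 0 with limma-voom, thinned counts, 2-group fits and the count filter (which leaves Cox6a2 untested), with 0 to 1 in fits without 1 library. It was also 0 at the 0.01 threshold, beside 310 of 16154 genes. At an unadjusted p under 0.05 it was 3 of the 46 members beside 2903 of 16154 genes. The cause of these changes was not tested. Cox6a2 with age, -0.05 on the log2 scale, ran from -0.41 to 2.22 in fits without 1 library and reversed to the latter without young 3. With library totals the log2 ratio of the complex II sum moved to 0.12 with age and -0.02 with NR, and that of complex V to 0.09 with age. With the replicate block the calls were 3, 3 and 1. Libraries of the same number in different groups had correlations of deviations from -0.27 to 0.133, with 1 of 15 pairs over 0.1. Libraries of different numbers were not compared in this way, so whether the numbers pair the libraries was not tested. Over all genes, thinned counts gave 1523, 409 and 417 calls in place of 3120, 1303 and 722, and leaving out aged 2 and 3 gave 1472, 227 and 680. Library totals gave 3505, 1590 and 728 calls over all genes. In NR-treated aged against aged HSC the calls over all genes were 1804 with DESeq2, 1757 with limma-voom and 422 without aged 3.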
